A study of Mus musculus with 24 samples.

Results

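The genes of Polycomb repressive complexes 1 and 2 (PRC1 and PRC2) were examined in RNA sequencing of mouse neural stem cells (NSCs) with a point-mutated or wild-type Smchd1, the gene of a chromatin silencing protein. The members were the 35 genes for core and accessory subunits, and for the Xist-linked recruiter Hnrnpk, whose symbols were found in the deposited table, out of 14922 genes in all. The rule that finds them reads gene symbols and no measured value, though the list itself was drawn up with earlier results of these data known. None of the 35 passed the threshold between MommeD43 and wild type in either strain, and 17 of 35 passed it between the strains in at least 1 genotype, beside 6919 of all 14922 genes.

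NSCs were grown from the cortex of E14.5 embryos, with independent lines as replicates, and all lines were labelled female. FVB_WT (Smchd1+/+, 6 libraries of 5 lines) and FVB_MD43 (Smchd1MommeD43/MommeD43, 5 libraries of 4 lines) were on FVB/NJ, where the MommeD43 allele came from a chemical mutagenesis screen. B6GFP_WT (4 lines, 6 libraries) and B6GFP_MD43 (4 lines, 5 libraries) were on C57BL/6J and carried Smchd1 fused to GFP, without and with the MommeD43 change introduced by CRISPR editing. The labels give B6GFP_WT as Smchd1+/+, whereas the study's methods describe it as homozygous for the fusion. Strain and fusion therefore differed together and cannot be told apart. Of 24 columns, 2 equalled the mean of their group mates in every gene (in batch 1, replicate 3 of FVB_MD43 and replicate 2 of B6GFP_MD43) and were not used.

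PRC2 places methyl groups on lysine 27 of histone H3 through EZH1 or EZH2, and PRC1 attaches ubiquitin to histone H2A through RING1 or RNF2. Canonical PRC1 binds the PRC2 mark through a CBX protein, whereas variant PRC1 holds RYBP or YAF2 and can reach chromatin without it. Both complexes keep developmental genes silent in stem cells and are brought to the inactive X chromosome by Xist RNA, where SMCHD1 also acts.

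Values are log2 CPM, the log2 of read counts scaled to library size, already corrected for batch by the authors. Batch 1 libraries had 0.526 to 0.893 of the depth of the deepest library. Batch 2, of FVB lines alone, had 0.137 to 0.19 of it and batch 3, of B6GFP lines alone, 0.435 to 1. Absolute depth was unknown, so counting error could not be given. For 5 lines sequenced in both batches of their strain, the median absolute difference over the members between the 2 libraries was 0.0708 to 0.19 log2. Fitted array weights ran from 0.1 to 4.9, and were lowest in B6GFP_WT replicate 4 (0.101) and B6GFP_MD43 replicate 2 (0.158), both of batch 3. The 8 NSC markers summed to between 12.36 and 12.92 log2 CPM in every library. Single markers still differed between strains, from -2.66 to 0.665 log2 (B6GFP minus FVB) in WT and from -3.21 to 0.698 in MD43.

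All 35 members were listed with a value in every library. Levels of different genes were set side by side only per length, as log2 CPM per kb of the merged exons of GENCODE M21, which matched 34 members; Auts2 was not matched. On this scale and as the mean of the 4 groups, the highest members were Rbbp7 (6.76), Hnrnpk (6.47), Rbbp4 (5.79), Yaf2 (5.50) and Bmi1 (5.34). The lowest were Cbx7 (-1.29), Ezh1 (-0.65), Pcgf2 (-0.39) and Pcgf5 (0.11).

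**Figure D1:**
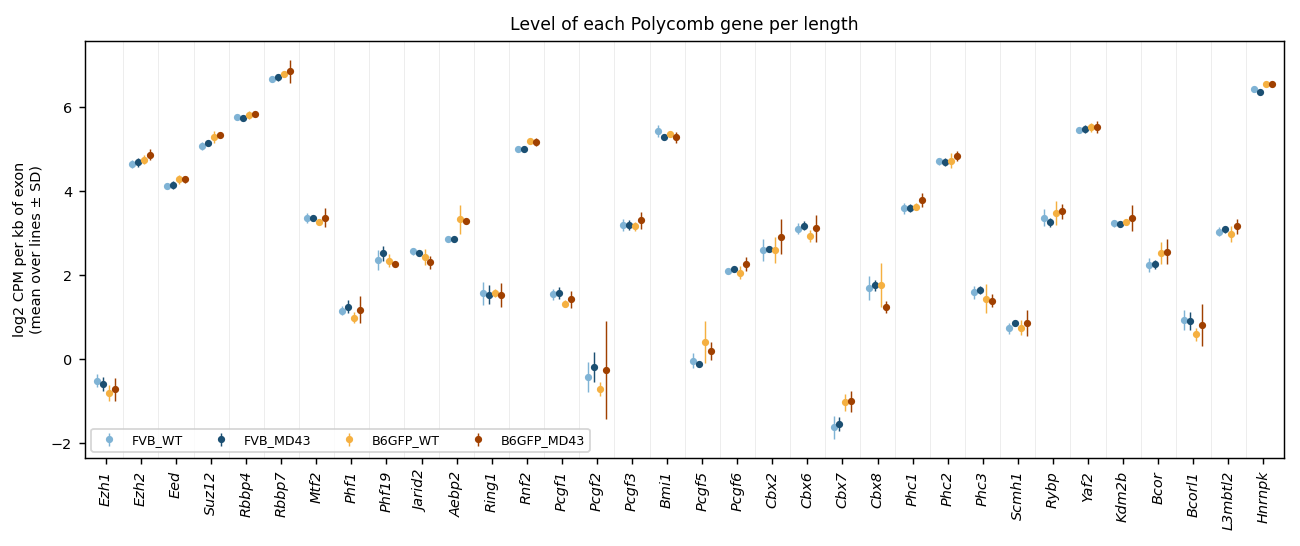
Level of 34 Polycomb genes per length (y axis, log2 CPM per kb of exon; points are means over lines and bars SDs over 4 or 5 lines) in the 4 groups. The members range from below 0 (Ezh1, Cbx7) to above 6 (Rbbp7, Hnrnpk), and the 4 groups of a gene mostly lie close together, with the widest spread for Pcgf2 in B6GFP_MD43.

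Paralogs that can fill the same place in a complex were unequal per length in all 4 groups. Ezh2, the main methyltransferase of dividing cells, stood 35.8 to 47.8-fold above Ezh1. Rnf2 stood 10.9 to 12.5-fold above Ring1, the paralogous PRC1 ubiquitin ligase. Among the PCGF proteins, which set the type of PRC1, Bmi1 (PCGF4) stood 44.3 to 67.2-fold above its close relative Pcgf2. Pcgf2 had an SD over lines of 1.17 log2 in B6GFP_MD43, with libraries from 0.704 to 3.3 log2 CPM, so its fold there is uncertain.

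The same description held for chromodomain and variant subunits. Cbx6 lay 15.6 to 26.5-fold above Cbx7, and Cbx2 lay 1.78 to 3.2-fold above Cbx8. Yaf2 lay 4.0 to 4.66-fold above Rybp, and Rybp may share reads with the pseudogene Rybp-ps of the RefSeq table, which makes its level uncertain. These folds compare means over lines and carry no test.

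Levels of the members that follow are group means over lines in log2 CPM, and are not to be compared between genes. Among PRC2.1 accessory subunits, which bind CpG-rich DNA or H3K36 methylation, the group means were 5.77 to 5.88 for Mtf2, 2.79 to 3.05 for Phf1 and 4.6 to 4.85 for Phf19. The H4-binding core subunit Rbbp7 had group means of 8.22 to 8.39. Ring1 had group means of 3.23 to 3.27, with SDs over lines of 0.0957 to 0.276. For these 5 genes no comparison passed the threshold.

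The other PCGF genes without a call were Pcgf2 (group means 1.11 to 1.64), Pcgf3 (6.41 to 6.56), Bmi1 (7.27 to 7.42) and Pcgf6 (4.39 to 4.6). Among canonical subunits, Cbx2 had 4.69 to 5.01, Cbx6 6.35 to 6.59, Phc1 6 to 6.2, Phc2 7.52 to 7.65 and Scmh1 3.69 to 3.82. PHC proteins are the subunits whose SAM domains let PRC1 polymerise. Among variant subunits without a call, Yaf2 had 6.36 to 6.43, Kdm2b, which recruits PRC1 to CpG islands, 6.65 to 6.81, L3mbtl2 5.55 to 5.73 and Auts2 4.28 to 4.63. In all 4 of these the groups overlapped between strains and between genotypes.

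The first comparison asked whether the MommeD43 allele changed Polycomb gene expression. Smchd1 itself was at 7.17, 7.27, 7.38, 7.32, 7.35 and 6.96 log2 CPM in FVB_WT and at 7.28, 7.34, 7.42, 7.42 and 7.32 in FVB_MD43. In B6GFP_WT it was at 6.93, 7.09, 7.21, 7.31, 7.07 and 6.58 and in B6GFP_MD43 at 7.04, 7.16, 6.99, 7.42 and 7.24. The allele is a point change, so these levels do not check the genotype. The Smchd1 groups overlapped in both strains (MD43 minus WT was 0.05 in FVB, adjusted p = 0.942, and -0.0087 for B6GFP, adjusted p = 1).

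No member passed an adjusted p of 0.05 by limma in MD43 against WT, with 0 of 35 in FVB (background 0.0737% of all genes), 0 of 35 in B6GFP (background 0%), 0 of 35 over both strains (background 0.0335%) and 0 of 35 for the difference of the MD43 effect between strains (background 0%). At an unadjusted p of 0.05, 2 members passed in FVB (5.71%, beside 6.86% of all genes) and 0 in B6GFP (beside 2.14%). Over both strains 2 passed (5.71%, beside 4.62%). In FVB 17 members had a fitted value above 0 and 18 below, and in B6GFP 23 and 12. The median fitted change of the members was -0.00179 in FVB and 0.0329 in B6GFP, beside 0.0131 and 0.011 over all genes. No member's libraries were separate between MD43 and WT, where 0.456% of all genes in FVB and 0.208% in B6GFP had groups that did not overlap.

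The intervals show what the weighted fit could have missed, given weights estimated from the same libraries. The half-width of the 95% confidence interval was 0.064 to 0.338 log2 in FVB (median 0.121) and 0.0832 to 0.44 in B6GFP (median 0.158). In FVB the whole interval lay within 0.5 log2 of no change for 35 of 35 members and within 0.25 log2 for 29. In B6GFP these counts were 34 and 21, with Cbx7 reaching -0.5. The estimates themselves moved under the other settings that kept every line and batch. They ran from -0.206 (Bmi1) to 0.267 (Pcgf2) in FVB and from -0.444 (Cbx8) to 0.446 (Pcgf2) in B6GFP. The intervals do not cover this dependence. For the core enzyme genes the intervals were -0.126 to 0.0685 for Ezh2 in FVB and -0.0798 to 0.174 in B6GFP, and -0.138 to 0.024 and -0.0931 to 0.118 for Rnf2.

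**Figure D2:**
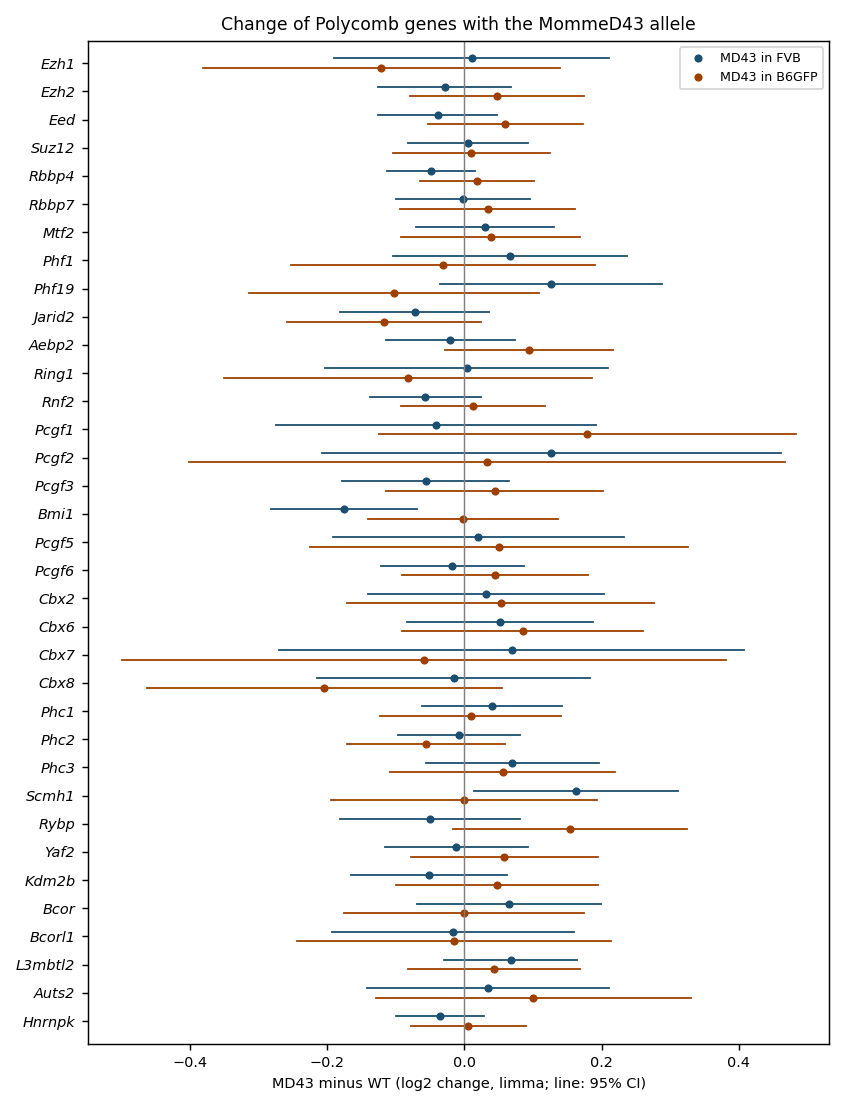
Fitted log2 change of each of the 35 members between MD43 and WT (x axis; points are limma estimates and lines 95% confidence intervals) in FVB and B6GFP, by role from PRC2 at the top to Hnrnpk at the bottom. Most intervals cross 0, and those of Bmi1 and Scmh1 in FVB do not, though neither passed after adjustment.

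Bmi1, a ring-finger subunit of canonical PRC1 known for repressing Cdkn2a in neural stem cells, had the smallest p of the members in FVB. Its level was 7.21 log2 CPM in the lowest FVB_WT library, 7.44 in the median and 7.59 in the highest, and 7.23, 7.32, 7.23, 7.40 and 7.21 in the FVB_MD43 libraries. The groups overlapped, with 1 FVB_WT library as low as the lowest FVB_MD43 library. The fitted change was -0.18 ± 0.0512 (SE), with an adjusted p of 0.307.

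The Bmi1 result turned on which columns were used. Without FVB_MD43 replicate 2, whose batch 1 library had the highest weight (4.9), the change was -0.23 with an adjusted p of 0.00763, in a fit that called 6.57% of all genes. With all 24 columns it was -0.19 with an adjusted p of 0.00573, where 3.42% of all genes were called. Bmi1 alone, 2.86% of the members, passed in each. Without quality weights it was -0.14 with an adjusted p of 1. In B6GFP the fitted change of Bmi1 was -0.0025 ± 0.0665. The difference between the strains was 0.17 ± 0.0839, with an adjusted p of 1.

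The other members named by smallest p did not pass either. Scmh1, a canonical PRC1 subunit, had 0.16 ± 0.0716 (adjusted p = 0.657) and Phf19 0.13 ± 0.0778 (adjusted p = 0.86) in FVB. In B6GFP Rybp had 0.15 ± 0.0821, Jarid2 -0.12 ± 0.068 and Cbx8 -0.20 ± 0.124, each with an adjusted p of 1. With all 24 columns Cbx8 reached -0.29 with an adjusted p of 0.0469 in B6GFP, where 3.22% of all genes were called. Over both strains Jarid2 had -0.09 ± 0.0429, Bmi1 -0.09 ± 0.042 and L3mbtl2 0.05 ± 0.0381, each with an adjusted p of 0.999. With all 24 columns Bmi1 and L3mbtl2 passed over both strains, at adjusted p of 0.0151 and 0.0303, beside 6.77% of all genes. For the difference between strains Rybp had 0.205 ± 0.104 and Phf19 -0.23 ± 0.128, each with an adjusted p of 1.

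Outside the members, the genes listed as Polycomb partners, opponents and targets held no call in the MD43 comparisons either. This covered 20 other PRC1 subunits and partners, 3 PRC2 partners, 2 H3K27 demethylases, 10 genes of the H2A deubiquitinase complex PR-DUB, 2 other H2A deubiquitinases, 6 X inactivation genes and 4 target genes. In FVB the smallest adjusted p among these lists were 0.31 for Scml2 (0.32 ± 0.0965) and 0.337 for T, the mesoderm factor Brachyury (-1.10 ± 0.34). In B6GFP all were 1, with Sfmbt2 at -0.57 ± 0.257. Xist was listed at -2.45 to 0.95 log2 CPM over all libraries, low values for cells labelled female. The study's methods state a correction for sex, and its part in this level was not tested. Hox genes were not analysed here.

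The second comparison set B6GFP against FVB within each genotype, and here members differed. Reads of the FVB lines, like those of the B6GFP lines, were mapped by the authors to the reference genome of the B6GFP background strain. The part of this mapping in the strain differences was not tested. In WT 12 of 35 members (34.3%) passed, 7 higher and 5 lower in B6GFP, beside 41.1% of all genes (17.9% higher and 23.2% lower). In MD43 15 of 35 (42.9%) passed, 10 higher and 5 lower, beside 34.4% of all genes (14.7% higher and 19.6% lower). These shares lie near the background of the whole table. The median fitted difference of the members was 0.0432 in WT and 0.0624 in MD43, beside -0.0215 and -0.0276 over all genes.

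The weighting of libraries decided these calls. Without quality weights, 1 of 35 members (Aebp2) passed in WT, beside 8.44% of all genes, and 0 of 35 in MD43, beside 6.82%. After centring of libraries on their medians, the WT split became 12 higher and 2 lower (14 members, 40.0%, beside 41.2% of all genes). Within batch 1, the batch that held both strains, 8 members passed in WT (5 higher, 3 lower; 22.9%, beside 34.1% of all genes) and 8 in MD43 (8 higher, 0 lower; 22.9%, beside 24.1%). In batch 1 the unweighted difference kept its direction for the 10 members called in both genotypes, from 0.37 and 0.48 for Aebp2 to -0.09 and -0.44 for Cbx8. Batches 2 and 3 held 1 strain each and gave no strain value. Batch was also a term of the main fit, so its strain differences took their strain contrast from batch 1 too. The kept direction is therefore not a separate check. The batch correction of the authors aligned the libraries of batches 2 and 3 with batch 1. Overlap between strains over all libraries therefore depends on that correction. Without B6GFP_MD43 replicate 4 the MD43 count was 9 (25.7%, beside 31.1% of all genes). The methods of the study also name strain among the corrected factors, without saying whether it was taken out of these values.

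The WT and MD43 strain comparisons used different libraries but shared 1 fit, with its batch terms and library weights. Their calls are therefore not independent. Of the members, 10 passed in both, 6 higher and 4 lower in B6GFP each time, which was 83.3% of the 12 called in WT and 66.7% of the 15 called in MD43. Over all genes 4338 passed in both, 70.8% and 84.6% of the respective calls. The 6 higher members were Suz12, Aebp2, Rnf2, Pcgf5, Bcor and Hnrnpk, and the 4 lower were Jarid2, Cbx8, Phc3 and Bcorl1. In WT alone Pcgf1 and Cbx7 passed. In MD43 alone Ezh1, Ezh2, Eed, Rbbp4 and Rybp passed, and the difference of their strain effect between genotypes did not pass for any (0 of 35).

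**Figure D3:**
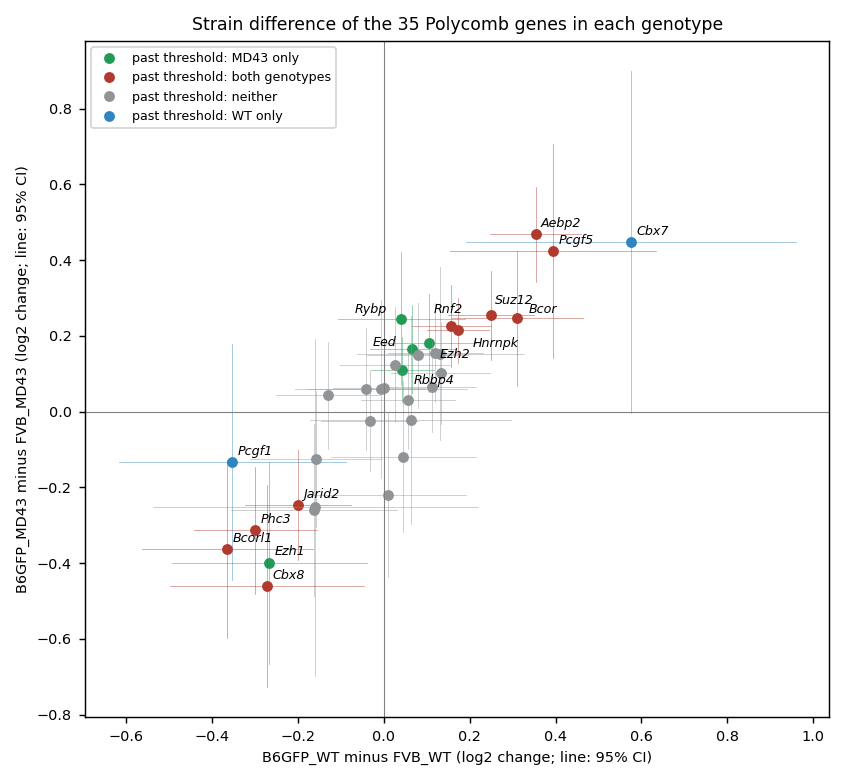
Fitted strain difference (B6GFP minus FVB, log2) of the 35 members in WT (x axis) and in MD43 (y axis), with 95% confidence intervals as lines and colours for passing in both, either or neither genotype. Aebp2, Pcgf5, Suz12, Bcor, Rnf2 and Hnrnpk lie above 0 in both, and Jarid2, Phc3, Bcorl1 and Cbx8 below 0 in both.

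Core PRC2 genes gave Suz12 in both genotypes. SUZ12 holds the PRC2 core together and carries the surface that accessory subunits bind. Its level was 7.23 in the lowest, 7.4 in the median and 7.49 in the highest FVB_WT library, and 7.4, 7.62 and 7.79 in B6GFP_WT, with 1 B6GFP_WT library (replicate 4, the library of lowest weight) in the FVB range. In MD43 the FVB libraries were at 7.36, 7.36, 7.47, 7.52 and 7.50, and all B6GFP libraries, at 7.69, 7.63, 7.63, 7.69 and 7.55, were higher. The fitted difference was 0.25 ± 0.0479 in WT (adjusted p = 0.000304) and 0.25 ± 0.0564 in MD43 (adjusted p = 0.0015), a 1.19-fold higher level in each. It passed without each line in turn (17 of 17 fits), and missed the threshold without quality weights (adjusted p = 0.101 and 0.27).

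Ezh1, Ezh2, Eed and Rbbp4 passed between strains in MD43 and not in WT. Ezh2 had group means of 7.39, 7.43, 7.49 and 7.61 log2 CPM in FVB_WT, FVB_MD43, B6GFP_WT and B6GFP_MD43, and a strain difference of 0.18 in MD43 (adjusted p = 0.0292) and 0.10 in WT (adjusted p = 0.121). Eed, which reads the H3K27 mark, had group means of 6.07 to 6.22 and differed by 0.16 in MD43 (adjusted p = 0.0265). Rbbp4, a histone-binding core subunit, had 8.88 to 8.96 and differed by 0.11 in MD43 (adjusted p = 0.041). The second methyltransferase Ezh1 was lower in B6GFP_MD43, by -0.40 ± 0.128 (adjusted p = 0.0201), with group means of 2.1 to 2.39.

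The MD43 calls of these 4 genes depended on single lines. Ezh1 missed the threshold without B6GFP_MD43 replicate 4 (adjusted p = 0.0568) or B6GFP_WT replicate 2 (0.053). Ezh2 missed it without B6GFP_MD43 replicate 2 (0.0513) or FVB_MD43 replicate 1 (0.0768). Eed missed it without B6GFP_MD43 replicate 4 (0.11), B6GFP_WT replicate 2 (0.0985) or FVB_MD43 replicate 1 (0.0813). Rbbp4 missed it without any of those 3 lines (0.0732, 0.0786 and 0.0664) or FVB_WT replicate 4 (0.0598).

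Aebp2 and Jarid2, which together define PRC2.2, differed in opposite directions. AEBP2 stabilises PRC2, and JARID2 links it to ubiquitinated H2A. Aebp2 was at 6.08, 6.16 and 6.21 log2 CPM in the lowest, median and highest FVB_WT library and at 6.11, 6.53 and 7.13 in B6GFP_WT. FVB_MD43 libraries lay at 6.12, 6.15, 6.15, 6.18 and 6.23 and B6GFP_MD43 libraries at 6.63, 6.60, 6.61, 6.54 and 6.55. The MD43 groups did not overlap, and in WT 1 B6GFP library (replicate 3 of batch 3) lay within the FVB range while the other library of the same line stood at 6.62.

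The fitted strain difference of Aebp2 was 0.35 ± 0.051 in WT (1.28-fold, adjusted p = 1.39e-05) and 0.47 ± 0.06 in MD43 (1.38-fold, adjusted p = 4.61e-06). It passed without each line in turn. Without quality weights it passed in WT, at an adjusted p of 0.0447, and not in MD43, at 0.0896. Jarid2 ran the other way, at 5.76, 5.88 and 5.95 in FVB_WT and 5.25, 5.68 and 5.98 in B6GFP_WT. In MD43 its FVB libraries were at 5.82, 5.80, 5.89, 5.76 and 5.71 and its B6GFP libraries at 5.49, 5.68, 5.42, 5.69 and 5.81. The groups overlapped in both genotypes. Its fitted difference was -0.20 ± 0.0592 in WT (adjusted p = 0.00995) and -0.25 ± 0.0697 in MD43 (adjusted p = 0.00928). The WT call was lost without B6GFP_WT replicate 1 (0.0584) or replicate 2 (0.0738), and the MD43 call without B6GFP_MD43 replicate 1 (0.0954), B6GFP_MD43 replicate 4 (0.0983) or B6GFP_WT replicate 2 (0.13).

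Among PRC1 enzymes, Rnf2 (RING1B) was higher in B6GFP in both genotypes. It was at 6.88, 7.07 and 7.12 log2 CPM in FVB_WT and at 7.16, 7.25 and 7.3 in B6GFP_WT, with no overlap. In MD43 the FVB libraries were at 7.01, 6.99, 7.07, 7.15 and 7.02 and the B6GFP libraries at 7.31, 7.12, 7.21, 7.27 and 7.05, with overlap. The fitted difference was 0.16 ± 0.0441 in WT (1.11-fold, adjusted p = 0.00723) and 0.23 ± 0.0519 in MD43 (1.17-fold, adjusted p = 0.00203). The WT call was lost without B6GFP_WT replicate 2 (adjusted p = 0.0522).

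Of the PCGF genes, Pcgf5, of a variant PRC1 active on the inactive X, was at 3.3, 3.58 and 3.82 in FVB_WT and at 3.38, 3.92 and 4.76 in B6GFP_WT. In MD43 the FVB libraries were at 3.6, 3.5, 3.5, 3.5 and 3.6 and the B6GFP libraries at 4.02, 3.78, 3.59, 4.03 and 3.75, with overlap in both genotypes. The difference was 0.39 ± 0.115 in WT (adjusted p = 0.00954) and 0.42 ± 0.136 in MD43 (adjusted p = 0.0194). Without FVB_WT replicate 2 the WT difference of Pcgf5 was 0.175 (adjusted p = 0.291), and without B6GFP_WT replicate 1 0.32 (0.0618). In MD43 the call was lost without B6GFP_MD43 replicate 1 (0.0778), B6GFP_MD43 replicate 4 (0.0587) or B6GFP_WT replicate 2 (0.0718). Pcgf1, of the KDM2B-BCOR complex, had group means of 2.04 to 2.3 and was lower in B6GFP_WT by -0.35 ± 0.127 (adjusted p = 0.0306), a call lost without B6GFP_WT replicate 2 (0.334) or FVB_WT replicate 2 (0.214).

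Canonical PRC1 members went in both directions. Phc3 was at 5.58, 5.73 and 5.99 log2 CPM in FVB_WT and at 5.1, 5.46 and 6.08 in B6GFP_WT. In MD43 its FVB libraries were at 5.72, 5.92, 5.68, 5.82 and 5.91 and its B6GFP libraries at 5.54, 5.52, 5.33, 5.70 and 5.54. The groups overlapped in both genotypes, by 1 library in MD43. The difference was -0.30 ± 0.0686 in WT (adjusted p = 0.00154) and -0.31 ± 0.0807 in MD43 (adjusted p = 0.00494). The highest of all Phc3 values came from B6GFP_WT replicate 4, the library of lowest weight. Without FVB_MD43 replicate 2 the MD43 difference was -0.18, at an adjusted p of 0.05.

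Cbx7, a chromodomain reader of H3K27 methylation, was low throughout. It was at 0.638, 1.17 and 1.39 in FVB_WT, and at 1.26, 1.64 and 2.22 in B6GFP_WT. In MD43 the FVB libraries were at 1.28, 1.14, 1.34, 0.99 and 0.95 and the B6GFP libraries at 1.62, 1.67, 2.08, 1.59 and 1.36, without overlap. The fitted difference was 0.57 ± 0.184 in WT (1.49-fold, adjusted p = 0.0167) and 0.45 ± 0.217 in MD43 (adjusted p = 0.117). The WT call was lost without B6GFP_WT replicate 1 (0.0553), B6GFP_WT replicate 3 (0.102) or FVB_WT replicate 3 (0.0899).

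Cbx8 was the least certain of the 10. In MD43 the FVB libraries were at 3.75, 3.67, 3.44, 3.69 and 3.66 and the B6GFP libraries at 3.11, 3.44, 3.24, 2.93 and 2.99, and with more decimals the groups did not overlap. The MD43 difference was -0.46 ± 0.128 (adjusted p = 0.00807), and without B6GFP_MD43 replicate 1 it was -0.27 (0.0569). In WT Cbx8 was at 3.11, 3.64 and 3.85 in FVB and 3.19, 3.4 and 4.43 in B6GFP, with overlap. The WT difference was -0.27 ± 0.108, at an adjusted p of 0.0498, and only 6 of 17 fits that left out a line kept it under the threshold. B6GFP_WT replicate 4 stood at 4.43 beside 3.19 to 3.58 in the other B6GFP_WT libraries, and without quality weights the WT difference was 0.02 (adjusted p = 0.972). Without B6GFP_WT replicate 2 it was -0.13 (0.491).

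Groups that did not overlap counted 2 members in WT (Rnf2 and Hnrnpk), beside 10.3% of all genes, and 5 in MD43 (Suz12, Aebp2, Cbx7, Cbx8 and Hnrnpk), beside 16.7%.

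The X-linked corepressors Bcor and Bcorl1, paralogs that join PCGF1 in variant PRC1, differed in opposite directions. Bcor was at 4.97, 5.34 and 5.58 log2 CPM in FVB_WT and at 5.16, 5.62 and 6.04 in B6GFP_WT, and in MD43 at 5.43, 5.37, 5.21, 5.45 and 5.48 against 5.64, 5.56, 5.44, 6.10 and 5.55. Its difference was 0.31 ± 0.0732 in WT (1.24-fold, adjusted p = 0.0019) and 0.25 ± 0.0861 in MD43 (1.19-fold, adjusted p = 0.0314). Bcorl1 was at 3.64, 4.15 and 4.21 in FVB_WT and at 3.38, 3.69 and 3.9 in B6GFP_WT, and in MD43 at 4.09, 4.15, 3.69, 4.11 and 4.05 against 3.68, 3.76, 3.5, 4.62 and 3.85. Its difference was -0.36 ± 0.096 in WT (adjusted p = 0.00462) and -0.36 ± 0.113 in MD43 (adjusted p = 0.0168). The groups of both genes overlapped in both genotypes. In MD43 the Bcor call was lost without B6GFP_MD43 replicate 1 (0.0564), B6GFP_MD43 replicate 4 (0.0559), B6GFP_WT replicate 2 (0.0778) or FVB_MD43 replicate 2 (0.0523), and that of Bcorl1 without B6GFP_MD43 replicate 4 (0.0568).

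Per length, Bcor stood above Bcorl1 by 2.46-fold at the lowest and 3.81-fold at the highest of the 4 group means, with both FVB groups lower than both B6GFP groups. Rybp was higher in B6GFP_MD43 by 0.25 ± 0.0842 (adjusted p = 0.0282), with group means of 5.5 to 5.76, a call lost without B6GFP_MD43 replicate 4 (0.0666) or B6GFP_WT replicate 2 (0.0547).

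Hnrnpk, an RNA-binding protein that links the Xist repeat to PCGF3/5-PRC1, was higher in B6GFP in both genotypes. It was at 9.05, 9.09 and 9.2 log2 CPM in FVB_WT and at 9.22, 9.25 and 9.31 in B6GFP_WT. The FVB_MD43 libraries were at 9.02, 9.05, 9.11, 9.05 and 9.04 and the B6GFP_MD43 libraries at 9.31, 9.21, 9.19, 9.27 and 9.19. On the batch-corrected values, the strains did not overlap in either genotype. The difference was 0.17 ± 0.035 in WT (1.13-fold, adjusted p = 0.000502) and 0.21 ± 0.0412 in MD43 (1.16-fold, adjusted p = 0.000412), and it passed without each line in turn. Without quality weights the adjusted p was 0.12 and 0.0926.

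**Figure D4:**
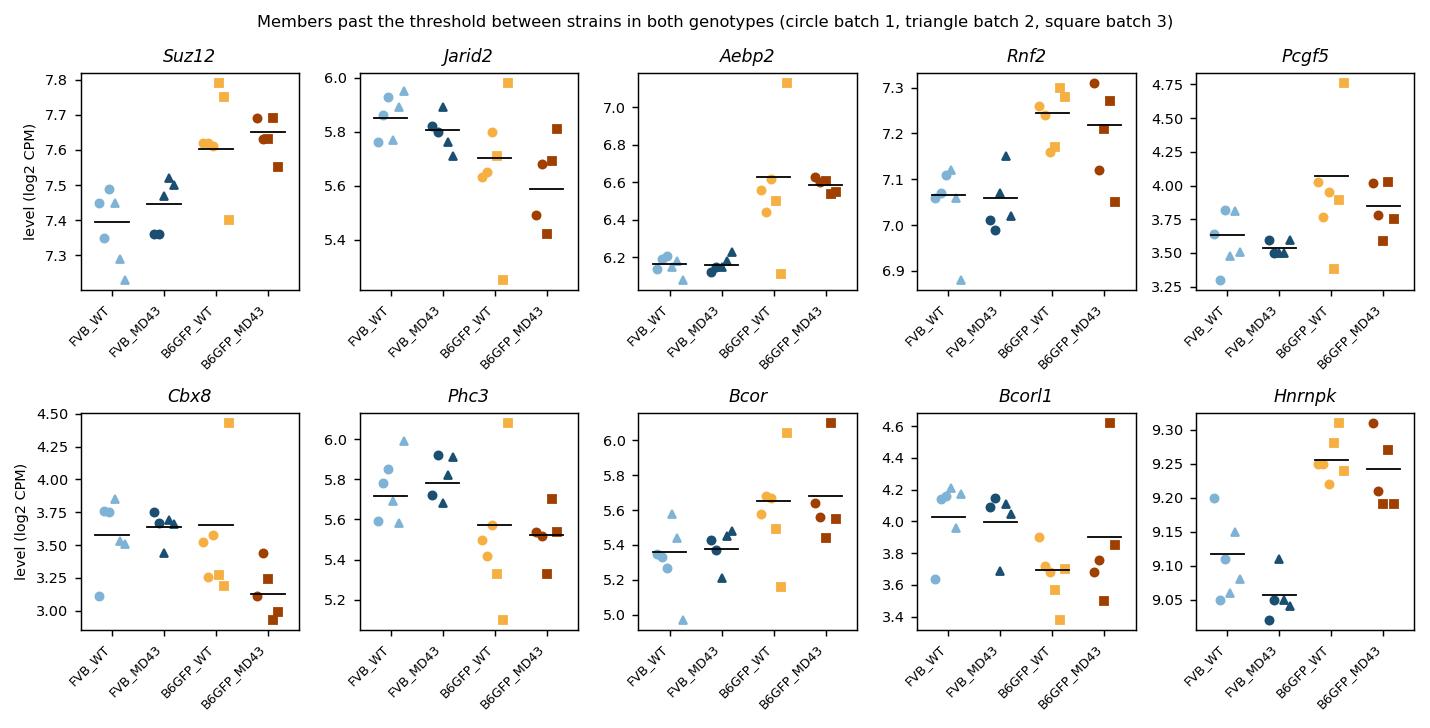
Levels (y axes, log2 CPM, a scale for each gene that does not start at 0) of the 10 members past the threshold between strains in both genotypes, with 1 point per library shaped by batch and the mean over lines as a line. Hnrnpk and Suz12 are higher in B6GFP with little or no overlap, and single B6GFP_WT squares stand apart for Aebp2, Pcgf5, Cbx8 and Phc3.

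The promoters of the members were also described as sequence. Only the C57BL/6J reference was read, with no FVB/NJ sequence, so the counts cannot address a difference between strains. RefSeq start sites on GRCm38.p6, the C57BL/6J reference, matched 30 members with 43 promoters of 300 bases (250 before and 50 after the start). Auts2, Cbx2, Pcgf1, Rybp and Yaf2 were unmatched. A member promoter held a median of 23 CpG and 64.3% G or C, beside 7 CpG and 52.7% over all 32851 promoters. The GC box GGGCGG, searched on both strands, was in 28 of 43 (65.1%, beside 35.7% of all promoters), and the CCAAT box CCAAT in 18 (41.9%, beside 37.4%). The TATA box TATAAA was in 1 (2.33%, beside 13.6%), the E2F motif (TTTGGCGC, TTTCCCGC, TTTGCCGC or TTTCGCGC) in 3 (6.98%, beside 2.26%) and the ETS motif CCGGAAGT in 0 (0%, beside 3.89%). Matches of different motifs may share bases, and these counts carry no test.

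The 150 bases before the start are shown for called members with 1 start site and a window outside their own gene's annotation. This meant its RefSeq span and GENCODE exons, and overlap with other genes was not checked. The members shown were 2 higher (Suz12, Rnf2) and 1 lower (Bcorl1) in B6GFP. Each sequence reads 5′ to 3′ on the gene's strand, with GC and CCAAT boxes of either strand in capitals. The windows are chr11:79992956-79993105 (plus strand) for Suz12, chr1:151500992-151501141 (minus strand) for Rnf2 and chrX:48341208-48341357 (plus strand) for Bcorl1.
Suz12: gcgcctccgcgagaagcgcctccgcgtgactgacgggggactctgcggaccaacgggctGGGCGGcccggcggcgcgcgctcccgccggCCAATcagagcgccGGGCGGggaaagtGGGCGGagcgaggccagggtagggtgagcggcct
Rnf2: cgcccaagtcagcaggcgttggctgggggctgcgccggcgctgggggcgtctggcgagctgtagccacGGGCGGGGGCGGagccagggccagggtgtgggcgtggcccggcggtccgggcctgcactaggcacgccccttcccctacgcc
Bcorl1: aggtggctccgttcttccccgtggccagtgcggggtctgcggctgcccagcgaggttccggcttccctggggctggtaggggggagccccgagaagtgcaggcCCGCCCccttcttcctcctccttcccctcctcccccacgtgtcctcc
The Suz12 window held 23 CpG, 3 GC boxes and 1 CCAAT box, the Rnf2 window 16 CpG and 2 adjoining GC boxes, and the Bcorl1 window 9 CpG and 1 GC box.

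Related gene lists held calls between strains too, beside 41.1% of all genes in WT and 34.4% in MD43. Of 20 other PRC1 subunits and partners, 8 were higher and 1 lower in B6GFP_WT (45%) and 5 higher and 1 lower in B6GFP_MD43 (30%). They were led by the deacetylase gene Hdac1 (0.68 ± 0.0574 in WT, adjusted p = 9.62e-09, and 0.75 ± 0.0676 in MD43, adjusted p = 3.57e-08) and by Sfmbt2 (-1.43 ± 0.224 and -1.93 ± 0.264). Of 3 PRC2 partners, 1 was higher and 1 lower in WT, and 1 lower in MD43, with Lcorl at -0.36 ± 0.0768 and -0.39 ± 0.0904. The H3K27 demethylase Kdm6b was lower (-0.38 ± 0.12 and -0.38 ± 0.141), and Kdm6a was at 0.0019 and -0.00056 with neither passing. Of 10 PR-DUB genes, 1 was higher and 2 lower in WT (30%) and 0 higher and 2 lower in MD43 (20%). Ogt was among the lower both times (-0.44 ± 0.0828 and -0.38 ± 0.0974). Neither of the 2 other H2A deubiquitinase genes passed.

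Of 6 X inactivation genes, 1 was higher and 1 lower in WT (33.3%, beside 41.1% of all genes). In MD43 1 was higher and 2 lower (50%, beside 34.4%). Smchd1 was lower in B6GFP by -0.22 ± 0.0676 in WT (adjusted p = 0.0143) and -0.28 ± 0.0796 in MD43 (adjusted p = 0.0102). Xist was higher in B6GFP_MD43 than in FVB_MD43 by 0.98 ± 0.35 (adjusted p = 0.0349). Its level was low in every library, and the part of the stated sex correction in this difference was not tested. Among 4 targets in the table, Cdkn2a, a classical Bmi1 target, was higher in B6GFP (0.75 ± 0.151, adjusted p = 0.000467, and 0.82 ± 0.177, adjusted p = 0.00119) and T lower (-2.49 ± 0.386 and -1.73 ± 0.454).

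Cell type and cycle markers moved with strain too. Of 41 markers in the table, 68.3% passed in WT and 48.8% in MD43, beside 41.1% and 34.4% of all genes. In bulk RNA fewer cells of a type and less RNA per cell cannot be told apart. Of 12 proliferation markers, 10 were higher in B6GFP_WT and 3 in B6GFP_MD43, and their summed level was 11.48 to 11.71 log2 CPM in FVB_WT, 11.66 to 11.82 in FVB_MD43, 11.48 to 12.06 in B6GFP_WT and 11.68 to 12.16 in B6GFP_MD43. All 4 astrocyte markers were lower in B6GFP in both genotypes, with summed levels of 6.14 to 7.31 and 6.20 to 7.57 in FVB_WT and FVB_MD43 and 4.35 to 6.71 and 5.06 to 5.62 in B6GFP_WT and B6GFP_MD43. Of 5 oligodendrocyte markers 3 were lower in WT and 4 in MD43, with summed levels of 2.2 to 4.49 and 2.92 to 3.75 in FVB_WT and FVB_MD43 against 0.06 to 1.04 and -0.48 to 1.55 in the B6GFP groups. Of 8 NSC markers 2 were higher and 5 lower in WT and 2 higher and 4 lower in MD43. Of 7 neuron markers, 1 was higher and 2 lower in WT and 2 higher and 1 lower in MD43. Of 4 endothelial and pericyte markers 1 was lower in WT and 0 in MD43, and P2ry12, the 1 microglia marker in the table, did not pass. The part of these lists in the strain differences of the Polycomb genes was not tested.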

How the data were processed

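Poly(A) RNA libraries of NSC lines were trimmed with Trim Galore 0.4.4 and mapped with HISAT2 2.0.5 to GRCm38.p6 by the authors, who deposited 1 table of log2 CPM made with limma 3.40.6. The read counter, annotation and strand setting are not given in the sources used here. The authors stated corrections for batch, sex and strain, fitted together with male loss-of-function libraries not analysed here. In the deposited log2 CPM values of all 24 columns, a batch term fitted beside group without weights was at most 7e-09, while strain differences remained. All 24 columns matched the labels (0 unmatched). A column was left out where it equalled the mean of its group mates within 1e-06, which removed 2 and left 22 libraries. Sums of CPM were 899000 to 980000. Relative depth came from low values, of which 3143 of 3143 were whole multiples of 1 read within 0.05.

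The 22 libraries were fitted in R 4.3.3 with limma 3.58.1 across 14922 genes, with group and batch as terms, array quality weights, a mean-variance trend and the line as a block (consensus correlation 0.0827, 16 residual and 4.86 prior degrees of freedom). P-values are two-sided and Benjamini-Hochberg adjusted over all genes, with a threshold of 0.05. The code was tested on simulated data. Motifs and summaries used Python 3.11.15. The members and lists were chosen with earlier results of these data known. By rule, all 35 members were named with a level, and changes were given for the 10 called members with the smallest p in a comparison, or, without calls, for the 3 lowest p. Changes of further called members were added after their values were seen.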

Additional observations from a re-analysis of the deposited data

Results flagged for a closer look

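In 10 of 140 sets of a gene and a group, 1 line stood apart from its group mates by Dixon's criterion, where chance gives about 1 in 20. Values are log2 CPM of that line (the mean of its libraries) beside the lowest and highest of the other lines.

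B6GFP_MD43 replicate 2, a library of low quality weight (0.158), stood apart in 3 genes. Auts2 was at 5.75 beside 4.09 to 4.37, Scmh1 at 4.29 beside 3.64 to 3.71, and Ezh1 at 2.59 beside 2.02 to 2.09. FVB_MD43 replicate 4 also stood apart in 3, all low. Bcor was at 5.21 beside 5.43 to 5.45, Bcorl1 at 3.69 beside 4.09 to 4.11, and Rybp at 5.35 beside 5.54 to 5.57.

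B6GFP_WT replicate 4, the library of lowest weight (0.101), was low in Cbx7, at 1.38 beside 1.74 to 1.81, and in Phc2, at 7.28 beside 7.61 to 7.67. For Cbx7 the 2 libraries averaged for B6GFP_WT replicate 2 differed by 0.957. The lowest B6GFP_WT library, at 1.26, lay below replicate 4, so this flag rests on the averaging. In FVB_WT, Cbx6 of replicate 5 was at 6.75 beside 6.4 to 6.5, and Yaf2 of replicate 1 at 6.45 beside 6.33 to 6.35. The cause was not tested for any of these.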

How the results depend on the processing

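Results were recomputed under 13 other settings and without each of 17 lines. For the genes and comparisons named by the rule, 845 values kept their direction and side of the threshold, 51 lost the call, 5 gained one and 1 reversed (Jarid2, MD43 in B6GFP, 0.131 in batch 3 alone). Outside that rule, Cbx8 for strain in WT also reversed, to 0.0214 without quality weights. Without quality weights, 1 member passed between strains in WT (8.44% of all genes) and 0 in MD43 (6.82%). With all 24 columns the counts were 31 for strain in MD43 (88.6%, beside 93.8% of all genes), 1 for MD43 in FVB (2.86%, beside 3.42%), 1 for MD43 in B6GFP (2.86%, beside 3.22%) and 2 for MD43 over both strains (5.71%, beside 6.77%), where the 2 added columns repeat group means and lower the spread by construction. In batch 1 alone, with fewer samples, 8 passed for strain in MD43 (22.9%, beside 24.1%). Leaving out a line gave 8 to 16 members for strain in WT (26.9% to 42.9% of all genes), 9 to 21 for strain in MD43 (31.1% to 54.8%), 0 to 1 for MD43 in FVB and 0 to 0 for the other MD43 comparisons. The lowest MD43 count (9) came without B6GFP_MD43 replicate 4, and the call in FVB (Bmi1) without FVB_MD43 replicate 2. The cause was not tested where none is named.

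Same-numbered lines did not deviate together, with correlations of -0.484 to 0.138 in FVB and -0.355 to 0.131 in B6GFP, so the numbers were not taken as pairs. With the replicate block, 16 members passed for strain in WT (45.7%, beside 46.0% of all genes) and 9 for strain in MD43 (25.7%, beside 32.6%), and 1 of 4 WT lines in each strain correlated best with its own number. Some B6GFP lines also shared the first number of their line label, whose meaning is not given in the sources used here. With such lines as 1 block, 11 members passed for strain in WT (31.4%, beside 40.0% of all genes). For strain in MD43 14 passed (40.0%, beside 34.4%). Absolute depth was unknown, and batch 2 was the shallowest.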
